A study of Homo sapiens with 6 samples.

Results

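The genes described here are the messenger RNAs of the hypoxia-inducible factor (HIF) switch: the HIF subunits HIF1A, EPAS1 and ARNT, the oxygen-sensing hydroxylases EGLN1, EGLN2, EGLN3 and HIF1AN, the ubiquitin ligase subunit VHL, and the transcriptional regulators CITED2 and CITED4. They were taken by symbol, 10 genes of the 24976 symbols in the deposited table, and each of them had a single row. RNA was sequenced from LN229, an established line of human glioblastoma cells that grows attached to the dish. In 3 libraries GDH1 had been knocked down for 24 h with small interfering RNA delivered by lipofectamine 3000 (GDH1 siRNA replicates 1 to 3). The other 3 libraries (NC replicates 1 to 3) came from cells whose genotype the labels give as wild type, and the protocol also names an NC mixture for control dishes. The series calls the 3 cultures of a group biological replicates. Whether a single siRNA was used for all 3 is not stated.

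HIF is a dimer of an oxygen-regulated alpha subunit, HIF-1alpha (HIF1A) or HIF-2alpha (EPAS1), with the constitutive beta subunit ARNT. The EGLN enzymes, which need oxygen, iron and 2-oxoglutarate, hydroxylate prolines of the alpha subunit, and VHL then marks it for destruction. HIF1AN hydroxylates an asparagine that blocks binding of the coactivator p300, and CITED proteins compete with HIF-1alpha for p300. GDH1, the product of GLUD1, is a mitochondrial enzyme that converts glutamate to 2-oxoglutarate, the co-substrate of these hydroxylases. The amount of alpha subunit is set largely at the level of protein, which these RNA libraries do not measure. The comparison asks which of these transcripts differed when GDH1 was depleted.

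CITED4 fell to 24.5% of its NC level, VHL fell modestly, and EGLN3, EPAS1, EGLN1 and HIF1A rose, while ARNT, EGLN2, HIF1AN and CITED2 did not pass the test. In edgeR's quasi-likelihood test, with Benjamini-Hochberg adjustment over all 15638 tested symbols and a threshold of 0.05, 4 of the 10 genes were higher and 2 were lower. The background was 26.1% of tested symbols called in either direction, 13.0% of them higher and 13.1% lower. The 3 knockdown libraries lay beyond all 3 NC libraries for the same 6 genes, against 42.0% of tested symbols. The median log2 fold change of the 10 genes was 0.10, and over all tested symbols it was -0.0033. All 10 passed the filter on low counts. The number of genes called higher was 2 without NC replicate 1 or GDH1 siRNA replicate 2, and 3 without NC replicate 2 or 3, because HIF1A and EGLN3 lost their calls as given with each gene. Fewer of all tested symbols were higher in such fits as well. They were 1163 of 15914 without NC replicate 1 and 1190 of 15957 without GDH1 siRNA replicate 2, against 2037 of 15638 with all libraries.

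The promoter windows of 4 called genes, 3 that rose and CITED4, are shown because HIF binds DNA through a short core motif, which may lie in a promoter or elsewhere in a target gene. The sequences are RefSeq's, on GRCh38.p14, the build named in the submitters' processing notes, and 9 of the 10 genes (all but VHL) matched. Each window holds 300 bases, 250 before and 50 from the annotated gene start, and capitals mark each ACGTG or GCGTG on either strand, the core letters of a hypoxia response element. An ACGTG inside CACGTG is also an E-box, and such a match is counted on both strands.
EGLN1, chr1:231422238-231422537, minus strand: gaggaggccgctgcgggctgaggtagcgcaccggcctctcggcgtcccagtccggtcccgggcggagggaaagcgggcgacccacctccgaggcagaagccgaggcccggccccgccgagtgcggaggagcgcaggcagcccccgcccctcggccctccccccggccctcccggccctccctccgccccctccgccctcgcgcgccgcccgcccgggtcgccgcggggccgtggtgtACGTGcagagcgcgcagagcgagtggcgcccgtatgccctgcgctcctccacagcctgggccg
EGLN3, chr14:33951025-33951324, minus strand: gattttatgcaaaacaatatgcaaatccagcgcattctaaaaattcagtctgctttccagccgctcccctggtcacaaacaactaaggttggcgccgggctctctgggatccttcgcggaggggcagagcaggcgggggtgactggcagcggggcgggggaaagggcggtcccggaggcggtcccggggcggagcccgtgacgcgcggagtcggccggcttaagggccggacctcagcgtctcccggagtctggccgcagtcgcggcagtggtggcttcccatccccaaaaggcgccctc
EPAS1, chr2:46297157-46297456, plus strand: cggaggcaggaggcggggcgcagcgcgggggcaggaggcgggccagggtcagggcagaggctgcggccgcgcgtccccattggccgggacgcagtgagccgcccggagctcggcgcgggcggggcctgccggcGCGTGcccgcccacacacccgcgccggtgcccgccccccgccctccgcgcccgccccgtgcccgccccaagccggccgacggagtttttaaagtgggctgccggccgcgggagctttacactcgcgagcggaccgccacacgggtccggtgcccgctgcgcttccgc
CITED4, chr1:40862314-40862613, minus strand: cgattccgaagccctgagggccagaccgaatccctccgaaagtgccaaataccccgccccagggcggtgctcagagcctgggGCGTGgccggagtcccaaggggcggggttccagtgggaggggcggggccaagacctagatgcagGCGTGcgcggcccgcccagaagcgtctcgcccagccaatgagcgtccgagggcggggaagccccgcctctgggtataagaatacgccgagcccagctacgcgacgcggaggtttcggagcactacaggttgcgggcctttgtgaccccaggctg
EGLN1 held ACGTG with its first base 13 bases before the gene start, EPAS1 held GCGTG 117 bases before it, and CITED4 held GCGTG 168 and 104 bases before it. No match was found in the EGLN3 window. HIF1A had a GCGTG 204 bases before its start, EGLN2 and CITED2 each had a CACGTG, and ARNT and HIF1AN had no match. In all, 6 of the 9 windows held a match, beside 55.9% of 15843 promoter windows of protein-coding genes of the same length. The letters were thus about as frequent in these windows as elsewhere, in genes that rose and in the gene that fell. A match is a run of letters and was not tested for binding.

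The label of the knockdown was checked on GLUD1 (chromosome 10, 87050202 to 87094843), which had 20.9, 26.2 and 26.7 CPM in GDH1 siRNA libraries and 88.3, 85.5 and 85.7 CPM in NC libraries. CPM is the count relative to the library total, which was scaled by TMM, the trimmed mean of M values. Library totals were 33355207 to 35619614 counts in the knockdown and 31201100 to 34452724 in NC. Of 8 glioma and astrocyte markers 7 were above 1 CPM, and GFAP was at 0.244 to 0.660 CPM in all 6 libraries. These markers summed to 6162 to 7090 CPM in the knockdown and 5805 to 5988 CPM in NC, and single markers went opposite ways. SOX2 was at 126 to 137 CPM in the knockdown and 73.2 to 77.4 CPM in NC, S100B at 187 to 207 CPM in the knockdown and 417 to 445 CPM in NC, and OLIG2 at 3.5 to 5.6 CPM in the knockdown and 8.6 to 11.3 CPM in NC. Their part in the results was not tested. The leukocyte markers summed to 27.6 to 29.4 CPM in the knockdown and 13.7 to 17.1 CPM in NC, nearly all of it CD68, with PTPRC at 0 to 0.388 CPM. Neuronal markers summed to 39.6 to 49.4 CPM in the knockdown and 50.6 to 53.9 CPM in NC. Epithelial markers summed to at most 0.183 CPM. In bulk RNA, fewer cells of a type and less RNA per cell cannot be told apart.

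**Figure D1:**
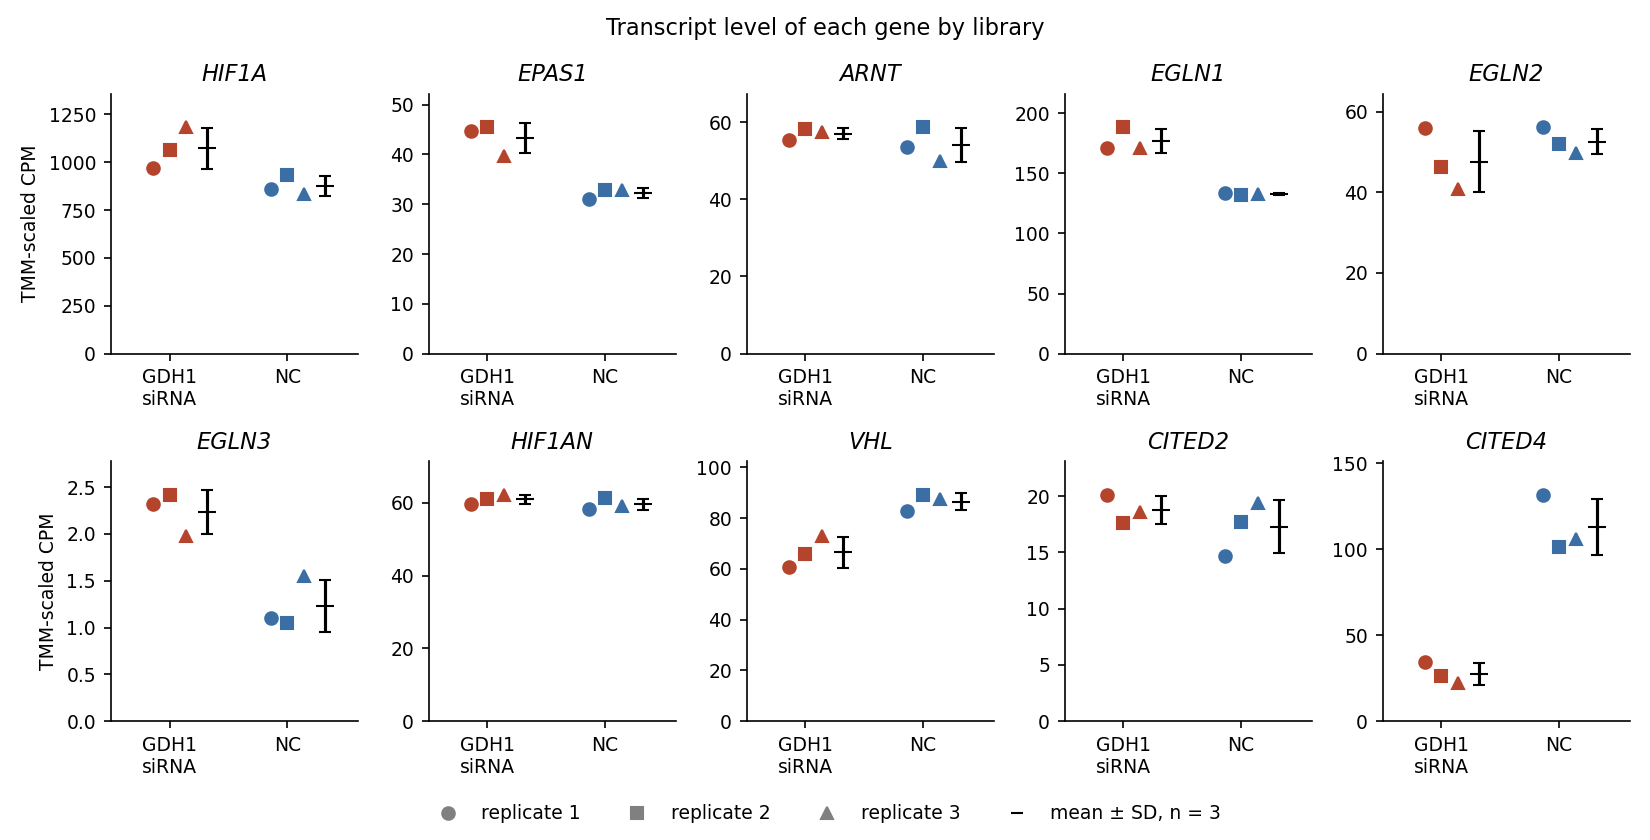
Transcript level of each of the 10 genes in TMM-scaled CPM (y axes from 0), with GDH1 siRNA libraries left of NC libraries, a symbol shape per replicate number, and the mean with its SD (n = 3). CITED4 sits between 22.0 and 34.6 CPM in the knockdown and between 101.5 and 131.6 CPM in NC, and the groups are also apart for HIF1A, EPAS1, EGLN1, EGLN3 and VHL.

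Libraries also differed in how levels followed the GC content of transcripts. Relative to the NC mean, among 10210 symbols the quintile poorest in GC exceeded the richest by 0.05, 0.47 and 0.75 (log2) in GDH1 siRNA replicates 1 to 3, and by -0.12, 0.14 and -0.03 in NC replicates 1 to 3. GC content among the 10 genes spans 36.4% (HIF1A) to 73.5% (CITED4) in the longest coding transcript of GENCODE 29. Fold changes were therefore computed a second time, from values freed of the trend that each library showed over GC content and transcript length (the GC and length correction). Under that correction 34.5% of tested symbols were called, 19.1% of them higher and 15.4% lower, and 5 of the 10 genes were higher and 2 lower.

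Among the HIF subunits of the 10, both alpha subunit genes rose and the beta subunit gene ARNT did not pass. HIF1A (chromosome 14, 61695513 to 61748258), the most abundant of the 10 genes, had 971, 1063 and 1181 CPM in GDH1 siRNA libraries and 860, 933 and 832 CPM in NC libraries. All 3 knockdown libraries were above all 3 NC libraries, but GDH1 siRNA replicate 1 exceeded NC replicate 2 by little. The means were 1072 ± 105 CPM in the knockdown and 875 ± 51.9 CPM in NC (SD, n = 3 each), a log2 fold change of 0.29 with a standard error (SE) of 0.08 (adjusted p = 0.018, edgeR). HIF1A lost its call without NC replicate 1 (adjusted p = 0.073), NC replicate 3 (0.094) or GDH1 siRNA replicate 2 (0.070). After correction its log2 fold change was 0.13 (adjusted p = 0.0065), since the trend fitted for a transcript of its GC content and length was -0.07, 0.09 and 0.23 in GDH1 siRNA replicates 1 to 3 and -0.13, -0.02 and -0.09 in NC replicates 1 to 3. The antisense genes HIF1A-AS1, HIF1A-AS3 and HIF1A-AS2 overlap HIF1A, and no source used here states whether counting was stranded, so their reads cannot be told apart from those of HIF1A.

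EPAS1 (chromosome 2, 46297407 to 46386697) rose in every knockdown library. It had 44.7, 45.4 and 39.7 CPM in GDH1 siRNA libraries and 31.0, 32.9 and 32.9 CPM in NC libraries, a gap wider than the spread within either group. The log2 fold change was 0.42 (SE 0.09, adjusted p = 0.0047, edgeR), and the corrected value was 0.50 (adjusted p = 4.11e-06). Its call held with any 1 library left out, at adjusted p values of 0.0011 to 0.034. EPAS1 is also known as an endothelial gene. The 4 endothelial markers summed to 2.03 to 2.35 CPM in the knockdown and 1.59 to 2.83 CPM in NC, and CDH5 was at 0 in all 6 libraries. TEK was at 0.29 to 0.54 CPM in the knockdown and 0 to 0.06 CPM in NC. VWF (1.34 to 2.01 CPM in the knockdown, 1.45 to 2.50 in NC) and PECAM1 (0 to 0.14 in the knockdown, 0.13 to 0.27 in NC) overlapped. Their part in the EPAS1 rise was not tested.

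ARNT (chromosome 1, 150809713 to 150876599), the shared beta subunit, had 55.4, 58.1 and 57.4 CPM in GDH1 siRNA libraries and 53.6, 58.6 and 49.8 CPM in NC libraries, and the groups overlapped. Its log2 fold change of 0.08 had a 95% interval of -0.11 to 0.26 (adjusted p = 0.54, edgeR). Within a library, the log2 ratio of EPAS1 to HIF1A counts was -4.44, -4.55 and -4.89 in GDH1 siRNA libraries and -4.79, -4.82 and -4.66 in NC libraries. The groups overlapped, and the difference of 0.13 gave p = 0.4 in a two-sided exact permutation test (adjusted over 3 ratios 0.4, smallest possible raw p 0.1). The difference was 0.37 with the GC and length correction, 0.26 without GDH1 siRNA replicate 3 and 0.04 without GDH1 siRNA replicate 1.

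**Figure D2:**
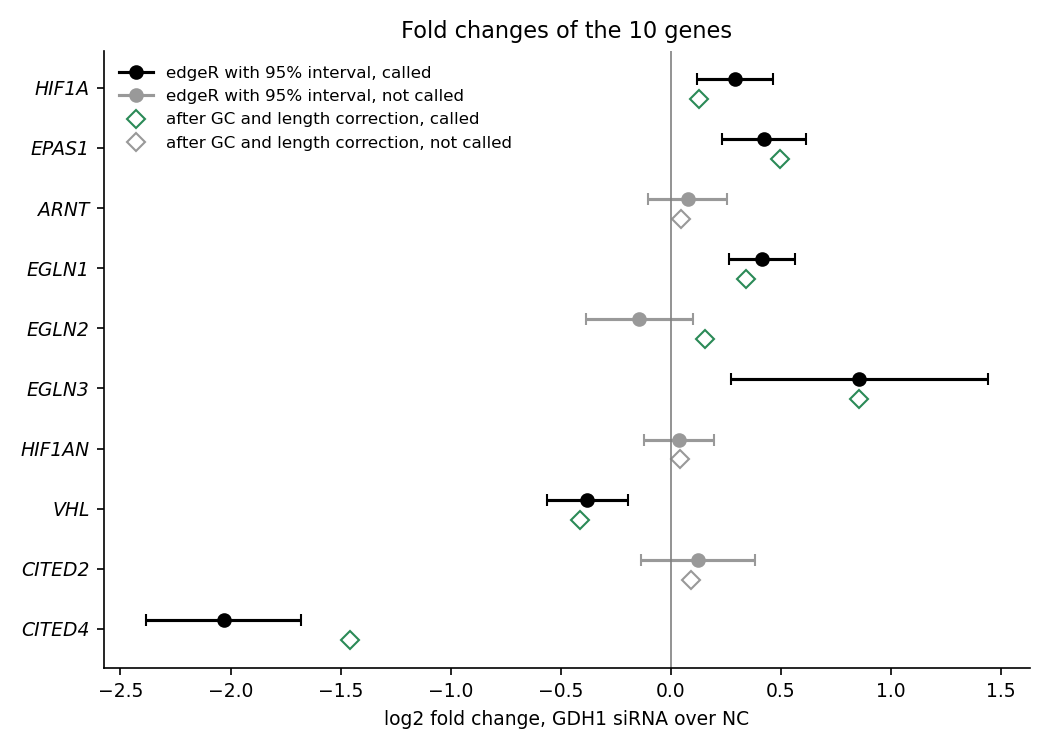
Log2 fold change of GDH1 siRNA over NC for the 10 genes (x axis), as estimated by edgeR with its 95% interval (circles, black where called) and after the GC and length correction (diamonds, green where called). The correction moves CITED4 to -1.46 from -2.03, HIF1A to 0.13 from 0.29 and EGLN2 to 0.16 from -0.14, and changes the direction of no other gene.

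Of the 3 prolyl hydroxylase genes, EGLN1 and EGLN3 rose and EGLN2 did not pass. EGLN1 (chromosome 1, 231363756 to 231422287) encodes PHD2, the main oxygen sensor acting on HIF-1alpha in most cells, and is itself a HIF target. It had 171.2, 188.1 and 171.3 CPM in GDH1 siRNA libraries and 133.5, 131.9 and 133.0 CPM in NC libraries. The NC libraries were nearly identical (132.8 ± 0.833 CPM) and every knockdown library was well above them (176.9 ± 9.77 CPM, SD, n = 3 each). The log2 fold change was 0.41 (SE 0.07, adjusted p = 0.0013, edgeR), and 0.34 with the GC and length correction. The call held with any 1 library left out. The non-coding gene LOC107985360 overlaps EGLN1 and was not counted in the table.

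EGLN3 (chromosome 14, 33924227 to 33951074), which encodes PHD3 and is strongly hypoxia-inducible in many cells, had the largest positive fold change of the 10 genes at the lowest level. It had 81, 81 and 69 counts in GDH1 siRNA libraries and 38, 33 and 51 counts in NC libraries. These were 2.24 ± 0.234 CPM in the knockdown and 1.23 ± 0.277 CPM in NC (SD, n = 3 each), and the groups did not overlap. The log2 fold change was 0.86 (SE 0.27, adjusted p = 0.035, edgeR), with a 95% interval of 0.27 to 1.44, and 0.85 after correction (adjusted p = 0.022). The call was lost without NC replicate 1 (adjusted p = 0.12), NC replicate 2 (0.10) or GDH1 siRNA replicate 2 (0.11), and with DESeq2 (0.052).

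EGLN2 (chromosome 19, 40799191 to 40808434), which encodes PHD1, had 55.9, 46.2 and 40.8 CPM in GDH1 siRNA libraries and 56.1, 51.9 and 49.8 CPM in NC libraries. GDH1 siRNA replicate 1 lay within the NC range and the other two lay below it. The log2 fold change was -0.14, with a 95% interval of -0.39 to 0.10 (adjusted p = 0.37, edgeR). Its direction depended on the correction for GC content: with it the log2 fold change was 0.16 (adjusted p = 0.042), the fitted trend for this transcript, 63.0% GC, being 0.09, -0.19 and -0.37 in GDH1 siRNA replicates 1 to 3 and 0.25, 0.05 and 0.17 in NC replicates 1 to 3. Without GDH1 siRNA replicate 1 it was -0.27 (adjusted p = 0.019). The read-through gene RAB4B-EGLN2 overlaps EGLN2 on the same strand and had no row, so their reads could not be told apart.

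The ratio of EGLN3 to EGLN1 counts within a library, on the log2 scale, was -6.17, -6.25 and -6.40 in GDH1 siRNA libraries and -6.85, -6.89 and -6.37 in NC libraries. NC replicate 3 lay inside the knockdown range, and the difference of 0.43 gave p = 0.2 (two-sided exact permutation test, adjusted over 3 ratios 0.3). The test could not have given a raw p below 0.1, and the corrected difference was 0.50 (exact p = 0.1).

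HIF1AN (chromosome 10, 100535943 to 100559998), the asparaginyl hydroxylase FIH, had 59.8, 61.2 and 62.2 CPM in GDH1 siRNA libraries and 58.4, 61.3 and 59.1 CPM in NC libraries. The groups overlapped, and the log2 fold change of 0.04 had a 95% interval of -0.12 to 0.19 (adjusted p = 0.76, edgeR). The knockdown libraries averaged 61.1 ± 1.22 CPM (SD, n = 3).

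VHL (chromosome 3, 10141778 to 10153667), the substrate-recognition subunit of the ligase that takes up hydroxylated alpha subunits, fell. It had 60.7, 65.7 and 72.9 CPM in GDH1 siRNA libraries and 82.7, 89.1 and 87.4 CPM in NC libraries, with every knockdown library below every NC library. The mean was 66.4 ± 6.17 CPM in the knockdown, against 86.4 ± 3.32 CPM in NC (SD, n = 3 each), which is 76.9% of NC. Its log2 fold change was -0.38 (SE 0.08, adjusted p = 0.0070, edgeR), -0.41 after correction (adjusted p = 3.15e-06) and -0.45 to -0.31 with 1 library left out, called in each case.

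CITED4 (chromosome 1, 40861054 to 40862363) changed most of the 10 genes. It encodes a CBP/p300-binding transcriptional co-regulator that is known to inhibit HIF-1alpha transactivation. It had 34.6, 26.3 and 22.0 CPM in GDH1 siRNA libraries and 131.6, 101.5 and 105.8 CPM in NC libraries. The lowest NC library was well above the highest knockdown library, and the knockdown mean was 24.5% of the NC mean. Its log2 fold change was -2.03 (SE 0.16, adjusted p = 1.39e-05, edgeR), and 99.2% of tested symbols had an absolute log2 fold change no larger than this. It ranged from -2.22 to -1.89 with 1 library left out.

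CITED4 is also the gene of the 10 whose transcript is richest in G and C. The trend fitted for its GC content and length was 0.13, -0.34 and -0.68 (log2) in GDH1 siRNA replicates 1 to 3 and 0.47, 0.11 and 0.33 in NC replicates 1 to 3. With that trend removed the log2 fold change was -1.46 (SE 0.06, adjusted p = 4.34e-14). The trend of GDH1 siRNA replicate 1 (0.13) lay near the low end of the NC values (0.11 to 0.47), and CITED4 was at 34.6 CPM in that library. This is 1 library, and the cause of the fall was not tested.

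CITED2 (chromosome 6, 139371807 to 139374648), a HIF-inducible inhibitor that competes with HIF-1alpha for p300, had 20.1, 17.7 and 18.6 CPM in GDH1 siRNA libraries and 14.7, 17.7 and 19.4 CPM in NC libraries. The groups overlapped, with a log2 fold change of 0.12 and a 95% interval of -0.14 to 0.38 (adjusted p = 0.49, edgeR). Within a library the log2 ratio of CITED4 to CITED2 counts was 0.78, 0.57 and 0.24 in GDH1 siRNA libraries and 3.15, 2.51 and 2.45 in NC libraries. The difference of -2.17 gave p = 0.1, the smallest that a two-sided exact permutation test of 3 libraries against 3 allows (adjusted over 3 ratios 0.3), and it was -1.54 with the GC and length correction.

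**Figure D3:**
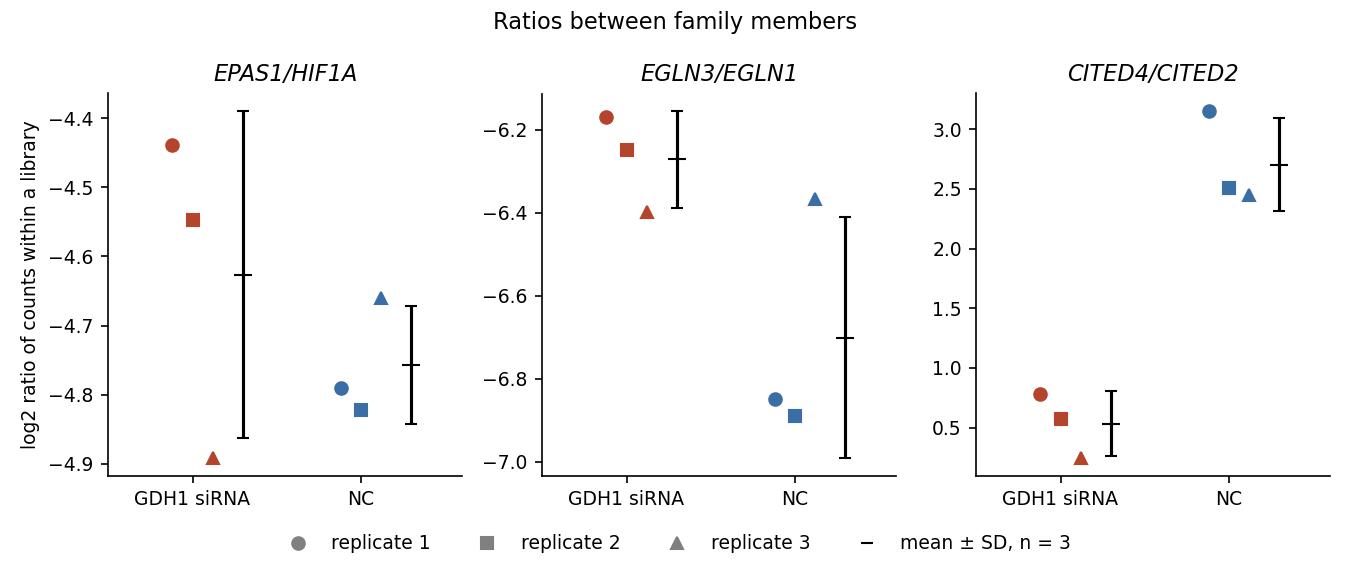
Log2 ratio of counts of EPAS1 to HIF1A, EGLN3 to EGLN1 and CITED4 to CITED2 within each library (y axes do not start at 0), GDH1 siRNA left of NC, with the mean and SD (n = 3). The groups are apart for CITED4 to CITED2, at 0.24 to 0.78 in the knockdown and 2.45 to 3.15 in NC, and overlap for the other ratios.

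Among 10202 other symbols whose log2 CPM averaged 3 or more, the libraries of GDF15, MAG and EGR1 followed CITED4 most closely. The measure was the root mean square difference of mean-centred log2 CPM over the 6 libraries, which was 0.12 for GDF15, a stress-induced cytokine gene, 0.17 for the myelin-associated glycoprotein gene MAG and 0.21 for the immediate early gene EGR1. GDF15 shared with CITED4 the order within the knockdown, with mean-centred levels of -0.67, -0.90 and -1.32 in GDH1 siRNA replicates 1 to 3 and 1.03, 0.93 and 0.94 in NC replicates 1 to 3. These levels were not corrected for GC content. The GC and length trend fitted for CITED4 had the same order, at 0.13, -0.34 and -0.68 in GDH1 siRNA replicates 1 to 3. Its part in the likeness was not tested.

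Per unit of transcript length, levels could be set side by side, without correction for the GC trend of each library. In TPM (counts divided by transcript length and scaled to the same total in every library), computed with the longest coding transcript of GENCODE 29, HIF1A averaged 816 ± 103 TPM in the knockdown and 668 ± 46.6 TPM in NC (SD, n = 3 each). Its level was 32.4 times that of EPAS1 in the knockdown and 35.4 times in NC, and with the median coding transcript length 19.7 times in the knockdown and 21.6 times in NC. HIF1A was thus the predominant alpha subunit transcript in both groups. ARNT was at 35.0 TPM in the knockdown and 33.4 TPM in NC, so the alpha subunit transcript HIF1A exceeded it 23.3-fold in the knockdown and 20.0-fold in NC (15.5-fold in the knockdown and 13.3-fold in NC with the median length).

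The order below HIF1A differed between the groups in TPM, which were not corrected for GC content. In the knockdown it was EGLN1 (74.9 TPM), CITED4 (62.8), VHL (53.5), EGLN2 (50.6), ARNT (35.0), EPAS1 (25.2), CITED2 (24.0), HIF1AN (14.1) and EGLN3 (2.36), and the libraries of each of the neighbouring pairs EGLN1 and CITED4, CITED4 and VHL, VHL and EGLN2, and EPAS1 and CITED2 overlapped. In NC it was CITED4 (259 TPM), VHL (69.7), EGLN1 (56.4), EGLN2 (56.2), ARNT (33.4), CITED2 (22.1), EPAS1 (18.8), HIF1AN (13.8) and EGLN3 (1.31), where EGLN1 and EGLN2, and CITED2 and EPAS1, overlapped. CITED4 was 2.62 times the level of CITED2 in the knockdown and 11.7 times in NC. With the median length CITED4 was 1.99 times the level of CITED2 in the knockdown and 8.88 times in NC. EGLN1 was 1.48 times the level of EGLN2 in the knockdown and 1.00 times in NC, but with the median length it was below EGLN2, at 0.343 times in the knockdown and 0.232 times in NC. These ratios carry the GC trend. With the GC and length correction the log2 fold change was 0.34 for EGLN1 and 0.16 for EGLN2, against 0.41 and -0.14 without it. The order depends on the length used: with the median coding transcript length 5 of the 10 genes kept their rank in NC, and EGLN2, which has many short annotated transcripts, came to 116 TPM there.

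**Figure D4:**
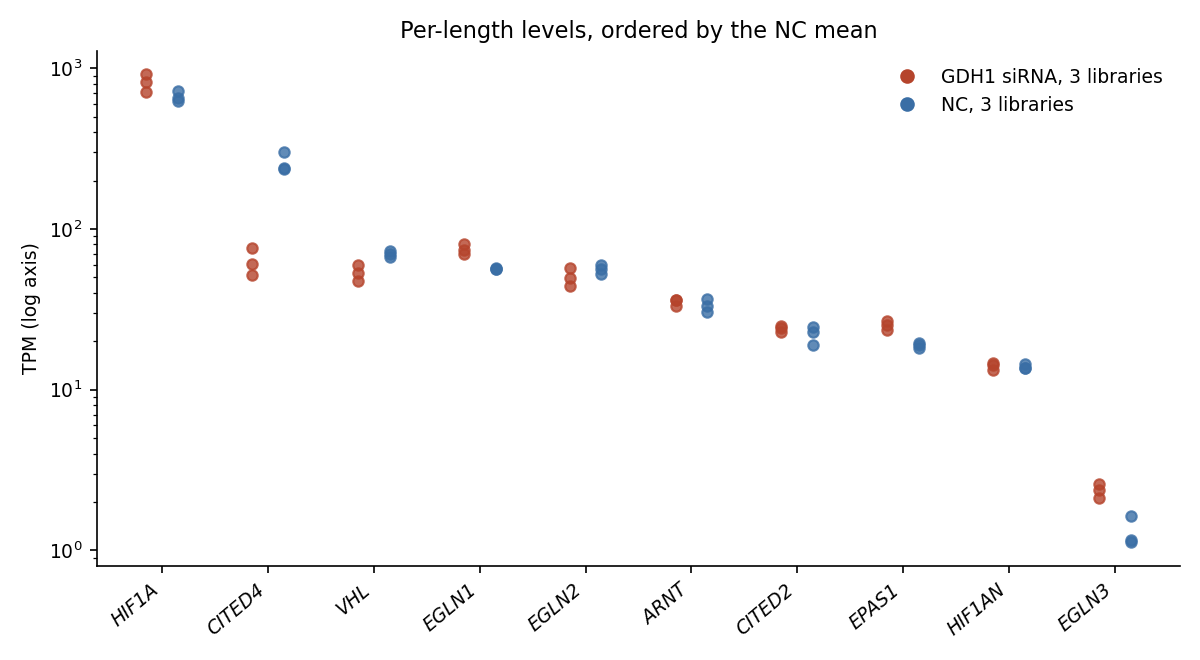
Levels per transcript length in TPM (log axis) for the 10 genes, ordered by their NC mean, with GDH1 siRNA libraries (red) left of NC libraries (blue). HIF1A is the highest in all 6 libraries and EGLN3 the lowest, and CITED4 lies at 51.5 to 76.2 TPM in the knockdown and 235 to 302 TPM in NC.

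Other genes of the pathway were described by lists. Of 10 further HIF subunits and dimer partners 8 were tested, and 1 rose (ARNTL2) and 1 fell (AHRR), beside 13.0% and 13.1% of all tested symbols. ARNTL2, the gene of a clock factor that resembles ARNT, rose to 70.1 ± 7.06 CPM in the knockdown, against 28.8 ± 3.28 CPM in NC (log2 fold change 1.29, SE 0.11, adjusted p = 7.44e-06, edgeR). AHRR, a repressor of the aryl hydrocarbon receptor, averaged 87.9 ± 6.29 CPM in the knockdown and 109 ± 5.11 CPM in NC (log2 fold change -0.31, adjusted p = 0.013). AHRR lost its call without NC replicate 1 (0.077), NC replicate 3 (0.057) or GDH1 siRNA replicate 2 (0.066), where 0 of this list were lower, and without GDH1 siRNA replicate 1 the list had 2 higher and 4 lower. HIF3A, the third alpha subunit gene, had 0 counts in all 6 libraries, which allows up to 0.0962 CPM per library (3 counts). ARNT2, named after its value was seen, averaged 76.0 CPM in the knockdown and 87.5 CPM in NC. It was not called (log2 fold change -0.20, adjusted p = 0.055, edgeR). With the GC and length correction it was called lower (-0.14, adjusted p = 0.015).

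Of 11 tested genes listed with the VHL ligase none rose and 1 fell, beside 13.0% and 13.1% of all tested symbols. The list holds ligase subunits, NEDD8, conjugating enzymes and the deubiquitinase genes USP20 and USP33. The gene that fell was ELOB, the elongin B gene, at 69.8 ± 8.83 CPM in the knockdown and 90.2 ± 5.84 CPM in NC (log2 fold change -0.37, adjusted p = 0.016, edgeR; -0.12 with the GC and length correction). The count higher was 0 in edgeR, DESeq2 and limma-voom, and 2 had an unadjusted p under 0.05 and a positive fold change. The count lower was 0 without NC replicate 1, NC replicate 3 or GDH1 siRNA replicate 2, and without GDH1 siRNA replicate 1 there were 3 higher and 2 lower. The GC and length correction gave 1 higher and 2 lower. The list's median log2 fold change was 0.04.

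Of 10 tested p300/CBP coactivators and CITED partners, 2 rose and 1 fell, with a median log2 fold change of 0.09. The 3 called are near the background of 26.1%. CITED1, the third CITED family gene in the table, rose to 7.97 ± 0.709 CPM in the knockdown, against 3.48 ± 0.713 CPM in NC (log2 fold change 1.20, SE 0.18, adjusted p = 6.66e-04, edgeR), and was called in each of the 6 fits with a library left out. The CITED family thus went different ways: CITED1 rose, CITED4 fell and CITED2 did not pass. TFAP2C, the gene of an AP-2 factor for which CITED proteins act as coactivators, fell to 186 ± 4.59 CPM in the knockdown, against 279 ± 1.78 CPM in NC (log2 fold change -0.59, adjusted p = 5.58e-05). MED1, a Mediator subunit gene, had a log2 fold change of 0.23 (adjusted p = 0.041) and was called without GDH1 siRNA replicate 1 but in none of the other 5 such fits, at adjusted p values of 0.058 to 0.16, which left 1 higher. Without GDH1 siRNA replicate 3 there were 2 lower. EP300 (0.06) and CREBBP (-0.03), the coactivator genes themselves, did not pass, but the correction called both higher, at 0.15 (adjusted p = 0.015) and 0.12 (0.044), and brought the list to 5 higher and 2 lower, where 19.1% and 15.4% of all tested symbols were called.

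Of 22 other regulators of HIF stability and translation, 4 rose and 5 fell, beside 13.0% and 13.1% of all tested symbols (median log2 fold change -0.05). HSP90AA1, a chaperone gene whose product stabilises HIF-1alpha, averaged 2493 ± 174 CPM in the knockdown and 1346 ± 37.7 CPM in NC (log2 fold change 0.89, SE 0.06, adjusted p = 3.24e-06, edgeR). WSB1, an E3 ligase subunit gene reported to act on VHL, rose by 0.66 on the log2 scale (adjusted p = 2.82e-04). LIMD1, a scaffold gene linking EGLN and VHL proteins, fell by 0.52 on the log2 scale (adjusted p = 0.0012). Also called, and named after their values were seen, were EIF4E (0.43) and HSP90AB1 (0.23), higher, and P4HTM (-0.42), WTIP (-0.48) and FKBP8 (-0.44), lower. The number lower was 2 without NC replicate 1 or 3 or GDH1 siRNA replicate 2 or 3, 3 without NC replicate 2 and 9 without GDH1 siRNA replicate 1. Over all tested symbols the number lower moved too, from 1053 of 15914 without NC replicate 1 to 3258 of 15911 without GDH1 siRNA replicate 1. With the GC and length correction P4HTM (-0.13), WTIP (-0.33) and FKBP8 (-0.05) lost their calls, while other members of the list gained one. The corrected list had 5 higher and 4 lower, where 19.1% and 15.4% of all tested symbols were called. HSP90AB1 lost its call without NC replicate 1, NC replicate 3 or GDH1 siRNA replicate 2 (adjusted p values of 0.051 to 0.068).

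Most of the HIF target genes outside the 10 rose. Of 37 tested, 31 were higher, 1 was lower and 5 did not pass, beside 13.0% and 13.1% of all tested symbols, and the median log2 fold change was 0.69. This list, like the others, was chosen with earlier results of these data known, so its share is not an independent comparison with all tested symbols. HILPDA, a lipid droplet protein gene, rose to 52.6 ± 8.93 CPM in the knockdown, against 12.1 ± 1.41 CPM in NC (log2 fold change 2.12, SE 0.13, adjusted p = 1.47e-06, edgeR). STC2, which encodes a secreted glycoprotein, rose by 1.47 on the log2 scale, the membrane protein gene TMEM45A by 1.35 and INSIG2, which holds back sterol synthesis, by 1.22. Of the 3 genes among the 10 that are themselves known as hypoxia-inducible, EGLN1 rose by 0.41 and EGLN3 by 0.86 on the log2 scale, and CITED2 (0.12) did not pass. The list had 28 to 30 higher members with 1 library left out and 33 with the GC and length correction. DDIT4, a stress-induced inhibitor of mTORC1 and the member that was lower (-0.37, adjusted p = 0.037), was named after its value was seen. It lost its call without NC replicate 1 (0.12), 2 (0.061) or 3 (0.099) or GDH1 siRNA replicate 2 (0.085), which left 0 lower, and without GDH1 siRNA replicate 1 there were 3 lower.

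**Figure D5:**
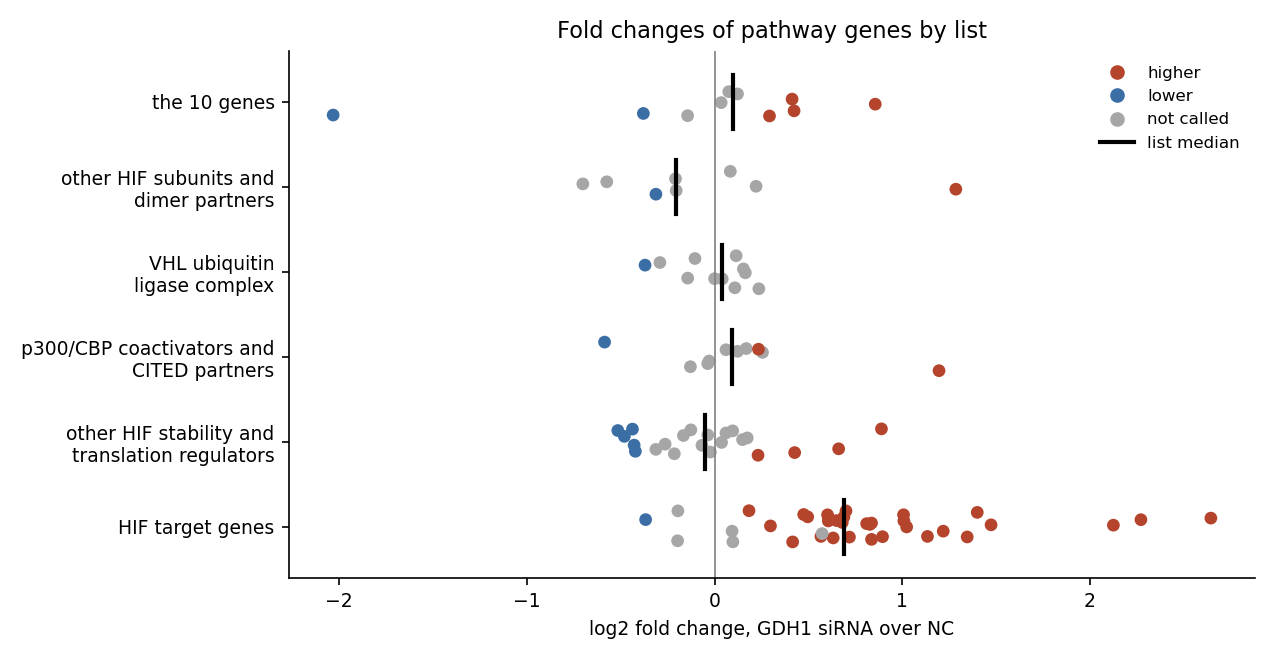
Log2 fold change of GDH1 siRNA over NC (x axis) for each tested gene of the 6 lists, coloured by its call, with the list's median as a black bar. The 10 genes spread from -2.03 to 0.86 around a median of 0.10, while the HIF target genes lie around 0.69.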

How the data were processed

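RNA-seq libraries of 6 LN229 cultures were compared, 3 with GDH1 siRNA and 3 labelled NC. The deposited table holds whole-number counts per gene row, as its values show, with no normalization by the authors. The genome build was GRCh38.p14, according to the submitters' processing notes. No source used here names the aligner, the counting tool or the strand setting. Unnamed assembled loci (4956 of 28196 rows, 1.20 to 1.30% of a library's counts) stayed in totals and tests.

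Rows of a symbol were summed, filterByExpr left 15638 symbols, and groups were compared with edgeR 4.0.16 (TMM, robust glmQLFit, glmQLFTest, two-sided) in R 4.3.3. The code was tested on simulated data. The biological coefficient of variation was 0.111. The SE was taken as |log2 fold change| over the root of the F statistic. P-values measure the spread between 3 cultures. All replicate pairs differed beyond sampling noise.

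The GC and length correction takes off, in each library, the loess fit (span 0.5) of log2 CPM deviations (prior count 2) on GC content and log length of the longest coding transcript, known for 84.5% of tested symbols and all 10 genes. Alternatives were RLE or upper quartile scaling, other filters, DESeq2 1.42.0, limma-voom 3.58.1, a replicate block, rows not summed and each library left out. The genes and lists were chosen with earlier results of these data known. Named genes were the 10, GLUD1, up to 4 called members per list by smallest p, genes overlapping the 10, and the 3 most like CITED4. A called member of the list of stability regulators is not reported here.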

Additional observations from a re-analysis of the deposited data

How the results depend on the processing

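EPAS1, EGLN1, VHL and CITED4 kept direction and call under every alternative run, and ARNT, HIF1AN and CITED2 stayed uncalled and positive. HIF1A ranged from 0.22 to 0.36 with 1 library left out, EPAS1 from 0.39 to 0.48, ARNT from 0.03 to 0.14, EGLN1 from 0.37 to 0.44, EGLN2 from -0.27 to -0.041, EGLN3 from 0.76 to 1.06, HIF1AN from 0.02 to 0.06, VHL from -0.45 to -0.31, CITED2 from 0.02 to 0.22 and CITED4 from -2.22 to -1.89. EGLN2 reversed to 0.16 with the GC and length correction, with or without the replicate block. EGLN3 stayed at 0.86 but lost its call with DESeq2. At an adjusted p under 0.01, 2 of the 10 genes were higher and 2 lower, where 12.7% of all symbols were called in either direction.

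With 1 library left out, 2 to 4 of the 10 genes were higher and 2 to 3 lower, and the ranges were 1 to 2 and 0 to 4 for other HIF subunits, 0 to 3 and 0 to 2 for the VHL ligase, 1 to 3 and 1 to 2 for coactivators, 3 to 6 and 2 to 9 for stability regulators and 28 to 30 and 0 to 3 for HIF targets. The log2 ratios ranged from 0.04 to 0.26 (EPAS1 to HIF1A), 0.34 to 0.60 (EGLN3 to EGLN1) and -2.30 to -1.95 (CITED4 to CITED2). Other HIF subunits had 2 lower with DESeq2, the replicate block or the correction, 3 with block and correction together, and 0 at an adjusted p under 0.01. The VHL ligase had 1 higher with the correction, with or without the block, 2 lower with the block or the correction, and 0 lower at 0.01. Coactivators had 5 higher and 2 lower with the correction, with or without the block, and 1 higher at 0.01 or with rows not summed. Stability regulators had 2 lower at 0.01 or with rows not summed, and HIF targets 2 lower with DESeq2 and 0 at 0.01 or with rows not summed. Calls over all tested symbols moved as well. With 1 library left out they ranged from 2216 of 15914 (without NC replicate 1) to 6236 of 15911 (without GDH1 siRNA replicate 1). They were 4085 of 15638 with all libraries. The cause of these shifts was not tested. With the median transcript length 5 of 10 genes kept their per-length rank.

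Deviations of same-numbered libraries correlated at 0.40, 0.11 and -0.11 for replicates 1 to 3 over 10554 symbols. Unlike numbers reached 0.49 (NC replicate 2 with GDH1 siRNA replicate 3) and -0.50 (NC replicate 2 with GDH1 siRNA replicate 1). The numbers were therefore not taken as pairs. The replicate block changed no call of the 10 genes, with HIF1A at 0.29 and CITED4 at -2.04. It gave the 3 log2 ratios exact p values of 0.5, 0.5 and 0.25, against 0.4, 0.2 and 0.1 unblocked. The smallest p that these tests allow is 0.25 with the block and 0.1 without it. In a balanced design the block cannot move the mean differences of the ratios (0.13, 0.43 and -2.17). Not every library correlated best with its own number. Depth limits EGLN3, at 33 to 81 counts.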
